A study of Mus musculus with 20 samples.

Results

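The 9 genes described here encode the decapping and 5′-to-3′ decay machinery of the cytoplasm: the catalytic decapping enzyme Dcp2, its activators Dcp1a and Dcp1b, the enhancers of decapping Edc3 and Edc4, the RNA helicase Ddx6, the ring subunit Lsm1, the scaffold Patl1 and the exonuclease Xrn1. They were taken by symbol, after matching the Ensembl identifiers of the count files to gene names, and all 9 were found among 37991 genes. In most eukaryotic mRNA turnover the poly(A) tail is first shortened by the CCR4-NOT complex, of which Cnot3 is a subunit. The Lsm1-containing ring and Patl1 then bind the shortened tail, Ddx6 and the Edc proteins bring in Dcp2, the cap is removed, and Xrn1 degrades the body of the mRNA from its 5′ end. Mouse embryonic stem cells (ESCs) are pluripotent cells that grow in culture, and mRNA decay is one of the layers that set their transcript levels.

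RNA was sequenced from mouse ESCs in which Cnot3 can be deleted with 4-hydroxytamoxifen (4OHT), in 20 libraries that form 10 groups of 2 replicates each. All are labelled strain C57BL/6. The WT cells received DMSO and the KO cells 0.1 µM 4OHT; in the actinomycin D series both arms carry the source label of Cnot3 conditional knockout ESCs, whereas the WT total and polysome libraries carry the source label E14Tg2a ESCs. Total RNA and polysome-associated RNA were collected on day 3 of 4OHT, and in a separate series actinomycin D, which blocks transcription, was added at 10 µg/ml on day 2 and total RNA was collected after 0, 4 and 8 h. The replicates are biological ones by the study's design text. WT cells had no 4OHT, so the drug and the deletion cannot be told apart. If the source labels hold, WT and KO cells of the day 3 total and polysome comparisons are also different lines, and there the line and the deletion cannot be told apart either.

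Gene counts ranged from 13832829 to 35170012 reads per library. The targeted gene Cnot3 was lower in the KO libraries of every kind, at 16.6% of the WT mean in total RNA, 18.3% in polysome RNA and 10.8% at 0 h. Day 3 total libraries differed in kind from polysome and actinomycin D libraries. Histone genes held 0.666 to 1.18% of their counts, against 0.00249 to 0.0049% in polysome and 0.00168 to 0.00293% in actinomycin D libraries. Levels are therefore compared within an experiment, and on day 3 within total or polysome RNA. Patl1, for example, stood between 22.8 and 25.7 CPM (counts scaled to library size) in day 3 total RNA. It stood between 81.9 and 109 CPM in polysome RNA and between 65.6 and 71.3 CPM at 0 h. The WT polysome libraries agreed least with each other, with a chi-square of 77 per degree of freedom over genes against 1.29 to 12.8 in the other 9 groups. Of the ESC identity markers 7 of 8 fell in total RNA, 7 of 8 in polysome RNA and 8 of 8 at 0 h, and their summed level in total RNA was 6374 to 6982 CPM in WT and 3224 to 3422 CPM in KO. Of the trophectoderm markers 13 of 15, 14 of 15 and 12 of 14 rose, and their sum went from 218 to 228 CPM in WT total RNA to 729 to 744 CPM in KO. Of the feeder fibroblast markers 8 of 9, 4 of 9 and 5 of 7 rose, and their sum went from 25.7 to 29.4 CPM in WT total RNA to 51.5 to 57.7 CPM in KO; Lum and Dcn did not pass the filter. Of the primitive endoderm markers 1 of 11 rose in total RNA, 2 of 11 fell in polysome RNA and 3 of 11 rose at 0 h. Of all genes tested 16%, 15.9% and 29.8% were higher and 12.2%, 21.1% and 32.9% lower in these comparisons. The primitive endoderm counts (9.09%, 18.2% and 27.3%) lay below the shares of the same direction. The ESC identity, trophectoderm and feeder fibroblast markers move with the KO arm in total RNA, polysome RNA and at 0 h. The part of these marker changes in the members' changes was not tested. In bulk RNA, fewer cells of a type and less RNA per cell cannot be told apart.

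By GENCODE annotation (GRCm38; the reads were aligned to mm9), Dcp1a lies on chromosome 14 at 30479535 to 30527063 and Dcp1b on chromosome 6 at 119175253 to 119221616. Dcp2 lies on chromosome 18 at 44380502 to 44424969. Chromosome 9 holds Edc3 at 57708540 to 57752499, Ddx6 at 44604892 to 44640731 and Xrn1 at 95954760 to 96057803. Edc4 lies on chromosome 8 at 105880881 to 105894908, as does Lsm1 at 25785288 to 25803975, and Patl1 lies on chromosome 19 at 11912399 to 11945091. Edc3 shares 1284 exonic bases, 22.1% of its exon length, with Clk3 on the opposite strand, and Edc4 shares 458 bases, 8.33%, with Nrn1l on its own strand. No source used here says whether the counting used strand, so how reads over the bases shared by Edc3 and Clk3 were assigned is not known. The counting set 2.31 to 4.81% of reads aside as ambiguous between genes, multiply aligned reads not included. Whether reads over these bases were among them is not given.

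The members differ widely in the length of their 3′ untranslated regions (UTRs), where many decay factors bind. The 3′ UTR is 7240 bases in Dcp2, 4250 in Ddx6, 4004 in Edc3 and 3757 in Dcp1a, all in the top 10% of 13983 tested genes, whose median is 927. Lsm1 has 1877, Patl1 1739 and Dcp1b 1536 bases. Those of Edc4 with 363 and Xrn1 with 218 bases are shorter than the median. The pentamer ATTTA, the core of AU-rich elements that many decay factors bind, occurs 18 times in the 3′ UTR of Dcp2, 7 times in Ddx6, 6 in Dcp1a, 5 in Patl1, 3 in Dcp1b and in Lsm1, and 1 time in Edc3, Edc4 and Xrn1; 64.2% of the tested genes hold at least 1, and the median gene holds 1. The Pumilio-type letters TGTANATA occur in Dcp1a (2), Ddx6 (2), Dcp2, Edc3, Lsm1 and Patl1 (1 each) and in 23.2% of tested genes. Both were searched on the transcript strand only. A match is a description of the letters, not a site.

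The most AU-rich ATTTA window of 4 of the mRNAs that differ in their loss after actinomycin D is shown as 25 bases, 5′ to 3′ on the + strand of GRCm38, with ATTTA in capitals; Ddx6 and Dcp1a had the steepest slopes over 8 h, Edc3 was the member whose loss differed upward between arms, and Patl1 was not lost relative to the average mRNA.
Dcp1a (chr14:30524455-30524479): attttctagtATTTAaccaattaat
Ddx6 (chr9:44638357-44638381): aaaaaacaaaATTTAaaaaaaaatt
Edc3 (chr9:57750555-57750579): cttctagcttATTTAttggcttgcc
Patl1 (chr19:11944544-11944568): aataaattgaATTTAttttatattc
A or T filled 21 of the 25 bases in Dcp1a, 24 in Ddx6, 15 in Edc3 and 23 in Patl1. The windows of Ddx6, with the steepest slope, and of Patl1 thus differ by a single base in this count. No window was drawn for Dcp2, whose 3′ UTR holds the most ATTTA of the members (18). Dcp2 is the member whose loss differed downward between arms.

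Levels between genes were compared per kilobase of the longest coding transcript. At 0 h in WT cells the helicase Ddx6 was highest at 59.0 CPM per kb, between 57.7 and 60.3 in its 2 libraries, followed by Edc4 at 38.4 (37.7 to 39.0) and Dcp2 at 26.5 (25.5 to 27.4). Edc3 (16.6 to 17.1), Lsm1 (15.5 to 17.7) and Patl1 (16.2 to 16.9) overlapped one another, and Dcp1a (15.2 to 15.8) overlapped Lsm1. Xrn1 stood at 10.1 (9.77 to 10.4) and Dcp1b was lowest at 2.22 (2.13 to 2.31). Dcp1b had 89 to 249 reads in a library, against 267 or more in every library for each of the other members, so its values are the least precise.

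**Figure D1:**
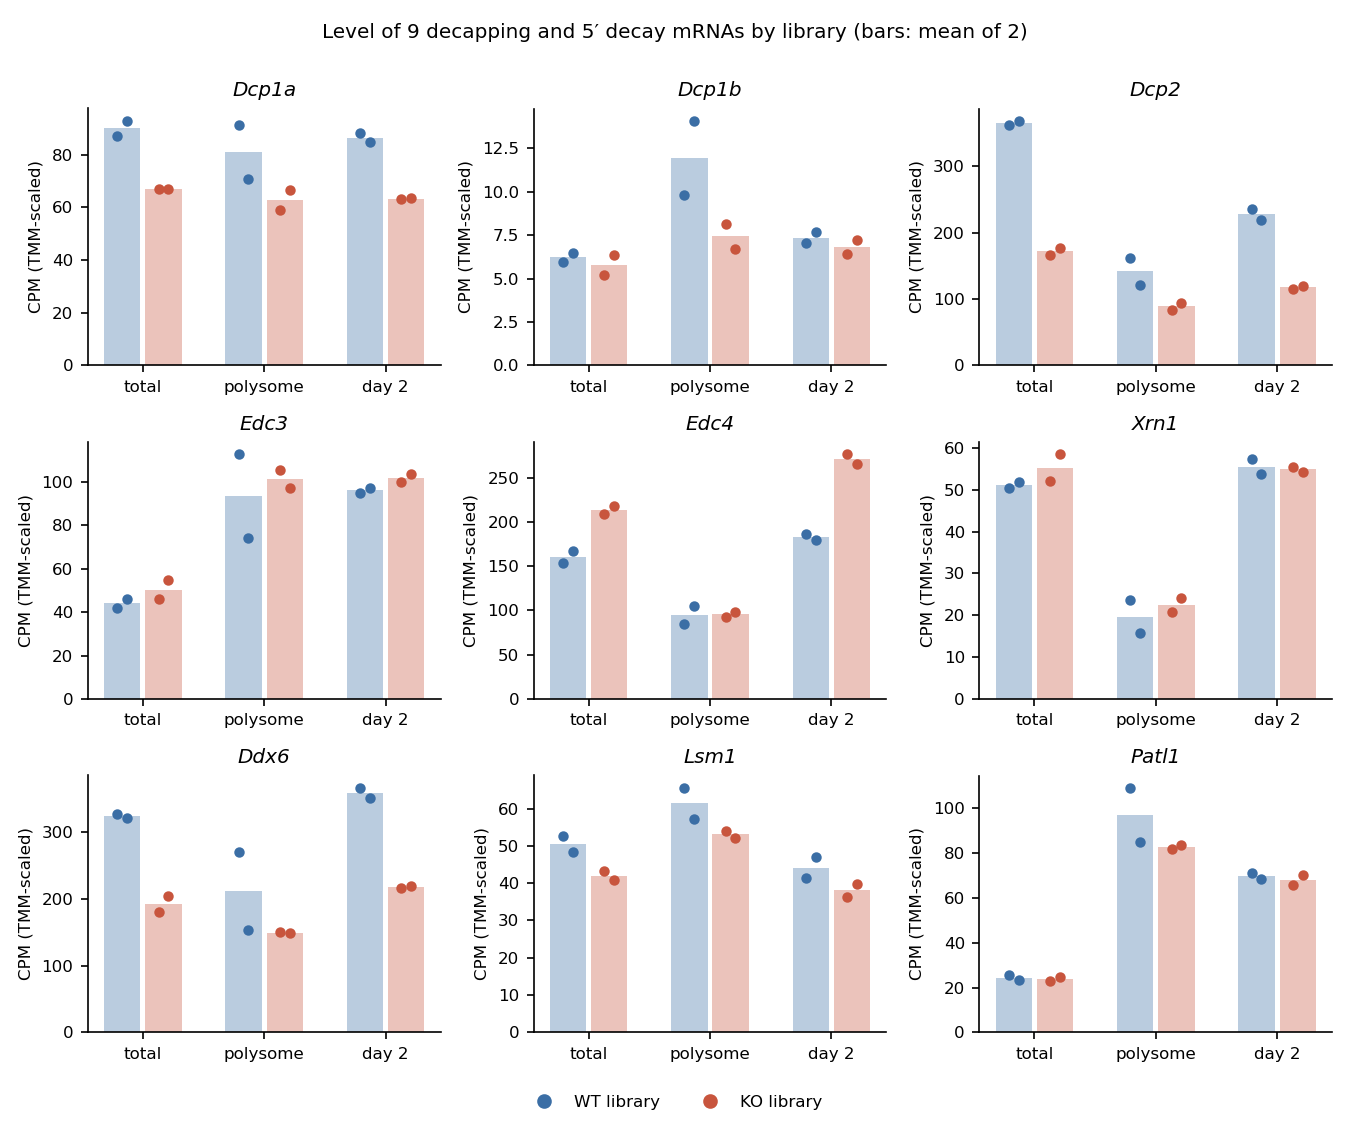
Level of each of the 9 mRNAs (y axis, TMM-scaled CPM, a separate scale per gene) in day 3 total RNA, day 3 polysome RNA and day 2 total RNA before actinomycin D. Points are libraries, bars the means of 2; Dcp2 in KO libraries lies below every WT library of the same kind, from 166 to 178 against 362 to 369 CPM in total RNA.

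Day 3 total RNA asks which decay factors change when Cnot3 is lost. The decapping enzyme Dcp2 was lower by more than any other member. It stood at 362 and 369 CPM in the WT libraries and at 166 and 178 CPM in the KO libraries. The groups are far apart, and the log2 change was -1.09 ± 0.17 (SE; edgeR quasi-likelihood test, Benjamini-Hochberg adjusted p = 0.00152). Ddx6, the helicase that connects CCR4-NOT to decapping, had 326 and 321 CPM in WT and 180 and 204 CPM in KO. It too was lower in both KO libraries, by -0.75 ± 0.22 on the log2 scale (edgeR adjusted p = 0.0306). Of the 9 members 2 were lower and 0 higher, against 12.2% lower and 16% higher of the 18303 genes tested (28.2% in either direction). The Ddx6 call was lost without either replicate of total WT, total KO or polysome KO, with edgeR adjusted p between 0.055 and 0.153 and log2 changes of -0.91 to -0.73, and with library totals as the scale (-0.49, edgeR adjusted p = 0.108), while the Dcp2 call held in each.

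The remaining members did not pass in total RNA. Dcp1a, an activator of Dcp2, had 87.2 and 92.9 CPM in WT and 66.8 and 67.1 CPM in KO, without overlap (log2 change -0.43 ± 0.15, edgeR adjusted p = 0.057). Edc4, the large scaffold that holds Dcp1 and Dcp2 together, had 154 and 167 CPM in WT and 210 and 218 CPM in KO, again without overlap (0.41 ± 0.15, edgeR adjusted p = 0.0604). Both passed, Dcp1a lower and Edc4 higher, when the 4 total libraries were fitted alone, where the spread of the polysome libraries does not enter: 4 members were then lower and 1 higher, and of all 18924 genes in that fit 28.9% were lower and 28.9% higher. For Lsm1 the change was -0.27 ± 0.13, for Edc3 0.19 ± 0.19, for Xrn1 0.11 ± 0.18, for Dcp1b -0.10 ± 0.22 and for Patl1 -0.04 ± 0.15 (edgeR adjusted p from 0.153 to 0.865). The libraries of Lsm1 and Xrn1 did not overlap between arms either. With so few libraries a group, absence of overlap is a description and no test.

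Polysome RNA, the fraction bound by several ribosomes, showed 2 members lower in KO cells: Dcp2 again, and Dcp1b. Dcp2 had 162 and 121 CPM in WT and 82.9 and 94.7 CPM in KO, which do not overlap. Its log2 change was -0.68 ± 0.17 (edgeR adjusted p = 0.011). Dcp1b, the second activator of Dcp2, had 9.83 and 14.1 CPM in WT and 8.13 and 6.72 CPM in KO, and changed by -0.70 ± 0.22 (edgeR adjusted p = 0.0292). These are 2 lower and 0 higher of 9 members, against 21.1% lower and 15.9% higher of all genes tested (37% in either direction). Both rest on few libraries. The Dcp2 call was lost without polysome KO replicate 1 (edgeR adjusted p = 0.101), with library totals as the scale (-0.41, 0.0774) and with the 4 polysome libraries alone (0.0802). The Dcp1b call ended when any single library other than polysome WT replicate 1 was left out, with edgeR adjusted p from 0.0723 to 0.192, as well as without the filter, with library totals and with the 4 polysome libraries alone (0.0655 to 0.154).

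Ddx6 shows the spread of the WT polysome libraries, at 269 and 154 CPM against 149 and 149 CPM in KO. Its log2 change of -0.50 ± 0.23 did not pass (edgeR adjusted p = 0.102). Without polysome WT replicate 2, the library with 154 CPM, it was -0.85 (edgeR adjusted p = 4.99e-05), and 5 members were then lower in place of 2, while genes called in either direction went from 6763 to 7473. Without polysome WT replicate 1, 2 members, Edc3 and Xrn1, were called higher, with 9406 genes called in all. Among the rest, Dcp1a changed by -0.37 ± 0.15, Lsm1 by -0.21 ± 0.13, Patl1 by -0.23 ± 0.15, Edc3 by 0.12 ± 0.19, Xrn1 by 0.19 ± 0.19 and Edc4 by 0.01 ± 0.15 (edgeR adjusted p from 0.0796 to 0.984).

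Polysome association, the change in polysome RNA beyond the change in total RNA, did not pass for any member. Total and polysome libraries also differ in kind, so in this contrast the fraction and the library kind cannot be told apart. Here 0 of 9 members had an edgeR adjusted p under 0.05, and 0 an unadjusted p under 0.05, against 0.0109% of all genes tested (0.00546% higher and 0.00546% lower); DESeq2 called 0 members too. The widest differences were -0.59 ± 0.31 for Dcp1b (edgeR adjusted p = 0.45), 0.41 ± 0.24 for Dcp2 (0.488) and -0.40 ± 0.21 for Edc4 (0.451). The SE ran from 0.19 to 0.32 over the members, which limits what these 8 libraries can show. Mitochondrial mRNAs made up 5.02% of gene counts in polysome WT replicate 2, against 0.912 to 1.38% in the other polysome libraries. Calls among members appeared when polysome WT replicate 1 was left out. That fit has replicate 2 alone in its group and loses the spread between them. It therefore cannot show which library the absence of calls rests on.

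**Figure D2:**
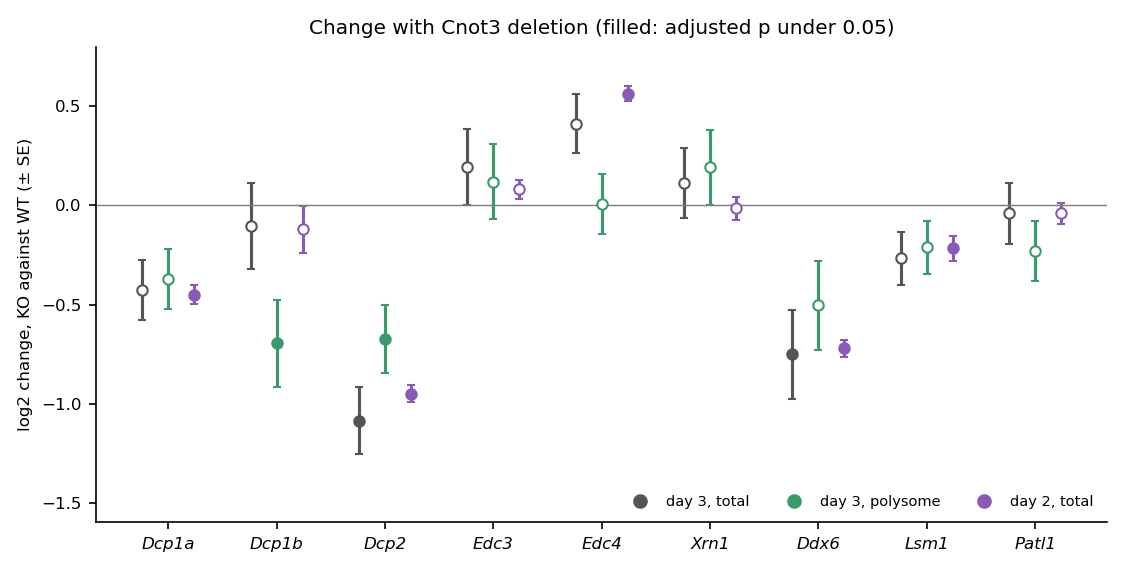
Log2 change of each member in KO against WT cells (y axis, ± SE from edgeR, 2 libraries a group) on day 3 in total and in polysome RNA and on day 2 before actinomycin D. Filled symbols passed an adjusted p of 0.05; Dcp2 is the member that passed in all 3, at -1.09, -0.68 and -0.95.

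Day 2 RNA, taken before actinomycin D was added, separated 5 members, with SE of 0.04 to 0.12 against 0.13 to 0.22 in day 3 total RNA. Dcp2 had 236 and 220 CPM in WT and 115 and 120 CPM in KO, so the groups are well apart (log2 change -0.95 ± 0.04, edgeR adjusted p = 1.89e-21). Ddx6 had 366 and 350 CPM in WT and 215 and 219 CPM in KO, again with no overlap (-0.72 ± 0.04, edgeR adjusted p = 7.78e-18). Dcp1a stood at 88.1 and 84.8 CPM in WT and 63.1 and 63.5 CPM in KO (-0.45 ± 0.05, edgeR adjusted p = 2.09e-10). These were the members with the widest falls at 0 h. They do not stand for the members as a set, since Edc4 rose and others did not pass.

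Edc4 went the other way. It had 187 and 180 CPM in WT and 277 and 266 CPM in KO, and rose by 0.57 ± 0.04 on the log2 scale (edgeR adjusted p = 4.56e-16). Lsm1 had 41.3 and 47.0 CPM in WT and 36.3 and 39.8 CPM in KO; the groups are close, and the change of -0.22 ± 0.06 (edgeR adjusted p = 0.00287) was lost without WT replicate 2 (-0.13, edgeR adjusted p = 0.145), without KO replicate 1 (-0.16, edgeR adjusted p = 0.0728) or with library totals as the scale (-0.06, edgeR adjusted p = 0.388). The other 4 did not pass: Edc3 at 0.08 ± 0.05, Xrn1 at -0.01 ± 0.06, Patl1 at -0.04 ± 0.05 and Dcp1b at -0.12 ± 0.12 (edgeR adjusted p from 0.139 to 0.831). In all, 4 members were lower and 1 higher at 0 h, against 32.9% lower and 29.8% higher of 15823 genes tested (62.7% in either direction).

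No member passed the test of the day 3 change against the day 2 change. The widest differences were 0.16 ± 0.09 for Xrn1 and 0.15 ± 0.10 for Edc3. For Dcp2 the difference between them was -0.10 ± 0.07, for Ddx6 0.01 ± 0.07, for Dcp1a 0.06 ± 0.08 and for Edc4 -0.12 ± 0.07. Of the 9 members 0 were called (0 at an unadjusted p under 0.05 and 0 by DESeq2; edgeR adjusted p from 0.334 to 1.0), against 4.83% of all genes tested (2.54% higher and 2.29% lower); without total WT replicate 1, 1 was lower. The experiments also differ in library kind and, for the WT cells, in the source label, which cannot be told apart from the day.

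Actinomycin D stops new transcription, so the fall of an mRNA afterwards reads its loss. Libraries are scaled to one another, so a slope in log2 per hour is relative to the average mRNA and is no absolute half-life: a gene at 0 is lost as fast as the average. In WT cells Ddx6 had the steepest slope of the 9 over the whole 8 h, although at 4 h less of Dcp1a was left (21.6% of the 0 h mean, against 47.6% of Ddx6). It had 366 and 350 CPM at 0 h, 174 and 167 at 4 h and 58.4 and 52.3 at 8 h, which leaves 15.5% of the 0 h mean (slope -0.34 ± 0.02, edgeR adjusted p = 1.84e-09). By interval, chosen after seeing the data, the WT loss was -0.27 ± 0.01 per hour from 0 to 4 h and -0.40 ± 0.01 from 4 to 8 h. In KO cells Ddx6 started lower, at 215 and 219 CPM, passed through 92.8 and 98.2 and ended at 34.5 and 35.4, or 16.1% (slope -0.33 ± 0.01, edgeR adjusted p = 1.21e-08). The slopes differed by 0.01 ± 0.02 (edgeR adjusted p = 0.879), which is within the SE.

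Relative to the average mRNA, Dcp1a fell steeply and then, in WT cells, fell no further from 4 to 8 h. WT libraries had 88.1 and 84.8 CPM at 0 h, 18.3 and 19.1 at 4 h and 21.9 and 21.5 at 8 h. KO libraries had 63.1 and 63.5 CPM, then 23.4 and 22.7, then 14.8 and 14.6. At 4 h the KO libraries were thus above the WT libraries, and at 0 and 8 h below them. The slope over all 3 times was -0.25 ± 0.06 in WT and -0.27 ± 0.06 in KO (edgeR adjusted p = 0.00258 and 0.00339), with a difference of -0.01 ± 0.08 (edgeR adjusted p = 0.947). By interval, chosen after seeing these values, the difference was 0.19 ± 0.02 per hour from 0 to 4 h (edgeR adjusted p = 3.44e-09) and -0.22 ± 0.02 from 4 to 8 h (8.46e-09), so a straight line hides 2 differences of opposite sign.

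Edc3, which binds Dcp1, Dcp2 and Ddx6 and promotes decapping, was lost faster in WT than in KO cells. WT libraries had 94.9 and 97.4 CPM at 0 h, 45.8 and 44.3 at 4 h and 27.8 and 26.5 at 8 h. KO libraries had 100.1 and 103 CPM, then 80.3 and 78.5, then 66.3 and 65.6. The arms are close at 0 h and far apart at 8 h, when KO stood at 243% of WT. The slope was -0.23 ± 0.01 in WT and -0.08 ± 0.01 in KO (edgeR adjusted p = 1.44e-09 and 2.48e-05), and the difference of 0.15 ± 0.01 passed (edgeR adjusted p = 1.49e-05). It lay between 0.12 and 0.21 and passed under every alternative run.

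Clk3, the kinase gene that shares exonic bases with Edc3 on the opposite strand, moved in the same way. It had 41.4 and 37.1 CPM at 0 h and 16.3 and 16.4 at 8 h in WT, against 37.4 and 37.8 and then 32.3 and 37.0 in KO. Its slope was -0.16 ± 0.01 in WT and -0.01 ± 0.01 in KO, with a difference of 0.14 ± 0.02 (edgeR adjusted p = 0.000358). Which part, if any, of either gene's counts lies in the shared bases cannot be read from the count files, so the Edc3 value is uncertain to that extent.

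**Figure D3:**
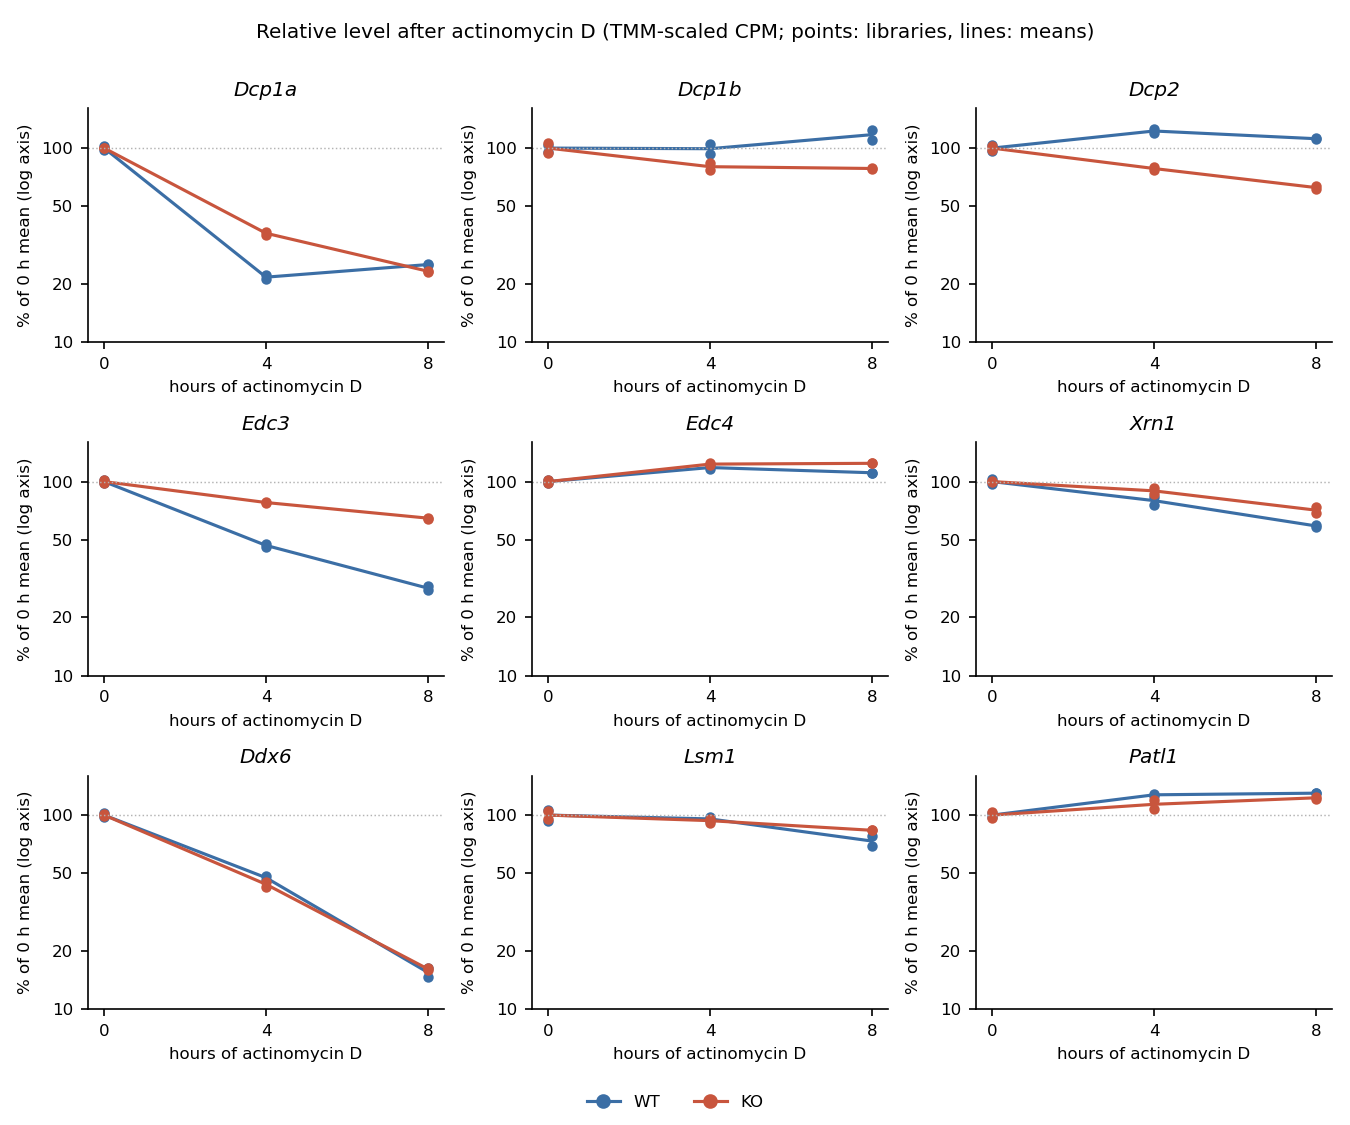
Level of each member after actinomycin D as a percentage of its 0 h mean in the same arm (y axis, log scale; x axis, hours). Points are libraries, lines join the means of 2; Edc3 ends at 28.2% in WT and 64.8% in KO, Dcp2 at 112% and 62.6%, and Ddx6 at 15.5% and 16.1%.

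Dcp2 differed in the opposite direction. WT libraries had 236 and 220 CPM at 0 h, 286 and 272 at 4 h and 256 and 253 at 8 h. KO libraries had 115 and 120 CPM, then 91.4 and 93.7, then 72.4 and 75.2. It held or gained share in WT cells and lost share in KO cells, where it ended at 29.0% of the WT level. The WT slope of 0.02 ± 0.01 did not pass (edgeR adjusted p = 0.129) and the KO slope was -0.08 ± 0.01 (edgeR adjusted p = 3.4e-05). The difference of -0.10 ± 0.02 passed (edgeR adjusted p = 0.000645), and was lost when libraries were scaled to the mitochondrially encoded mRNAs (-0.05, edgeR adjusted p = 0.527).

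Dcp1b had the same signs at a lower level. It went from 7.06 and 7.66 CPM at 0 h to 9.12 and 8.15 at 8 h in WT, and from 6.39 and 7.19 to 5.30 and 5.36 in KO. The slopes were 0.03 ± 0.02 in WT (edgeR adjusted p = 0.136) and -0.04 ± 0.02 in KO (edgeR adjusted p = 0.0394), and the difference of -0.07 ± 0.02 narrowly missed (edgeR adjusted p = 0.0523). The KO slope lost its call in 12 alternatives, among them RLE scaling and DESeq2, and without KO replicate 2 at 0 h (edgeR adjusted p = 0.242).

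Xrn1, the exonuclease at the end of the pathway, fell modestly in both arms. WT libraries went from 57.3 and 53.7 CPM at 0 h to 32.3 and 33.3 at 8 h, and KO libraries from 55.5 and 54.3 to 40.4 and 37.8. The arms overlap at 0 h and not at 8 h. Its slope was -0.09 ± 0.01 in WT and -0.06 ± 0.01 in KO, with a difference of 0.03 ± 0.01 that did not pass (edgeR adjusted p = 0.107). Lsm1 had slopes of -0.06 ± 0.01 and -0.03 ± 0.01 (edgeR adjusted p = 0.00117 and 0.0307), and their difference of 0.02 ± 0.02 did not pass (edgeR adjusted p = 0.407). The KO slope of Lsm1 lost its call in 7 of 23 alternatives. Among them were those without KO replicate 2 at 0 h or without either KO replicate at 8 h. Scaled to the mitochondrially encoded mRNAs, that slope was positive. Patl1 gained share in both arms, from 71.3 and 68.4 CPM to 90.3 and 91.0 in WT and from 65.6 and 70.3 to 84.5 and 82.4 in KO, with slopes of 0.05 ± 0.01 and 0.04 ± 0.01. Edc4 had slopes of 0.02 ± 0.01 in WT (edgeR adjusted p = 0.142) and 0.04 ± 0.01 in KO (edgeR adjusted p = 0.00713). The difference between them, 0.02 ± 0.02, did not pass (edgeR adjusted p = 0.429). In KO cells Edc4 stood at 337 and 337 CPM at 8 h, against 204 and 203 in WT. The arms were already apart at 0 h, at 277 and 266 CPM in KO and 187 and 180 in WT. The KO slope of Edc4 did not pass without KO replicate 2 at 0 h (edgeR adjusted p = 0.0664) and that of Patl1 without KO replicate 1 at 0 h (edgeR adjusted p = 0.0572). With libraries scaled to the mitochondrially encoded mRNAs, the KO slopes of Dcp2, Edc3 and Xrn1 did not pass either (edgeR adjusted p from 0.681 to 0.924).

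Counted together, 5 members had a negative and 1 a positive slope in WT cells (background 38.8% and 35%, 73.8% in either direction) and 7 and 2 in KO cells (36.3% and 31.6%, 67.9%). By DESeq2 the slope of 6 members was called in WT and of 7 in KO. Between arms 1 slope was lower (Dcp2) and 1 higher (Edc3), against 8.78% and 10.2% of all genes (19% in either direction). The share of members that differed between arms is thus close to the background. When libraries were scaled to ribosomal protein mRNAs, which lowers the median slope of all genes to -0.15 in WT and -0.108 in KO, every member had a negative slope in both arms, so a positive sign holds only relative to the average mRNA. The 0 h libraries enter both the day 2 comparison and the slopes, so these are not independent.

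**Figure D4:**
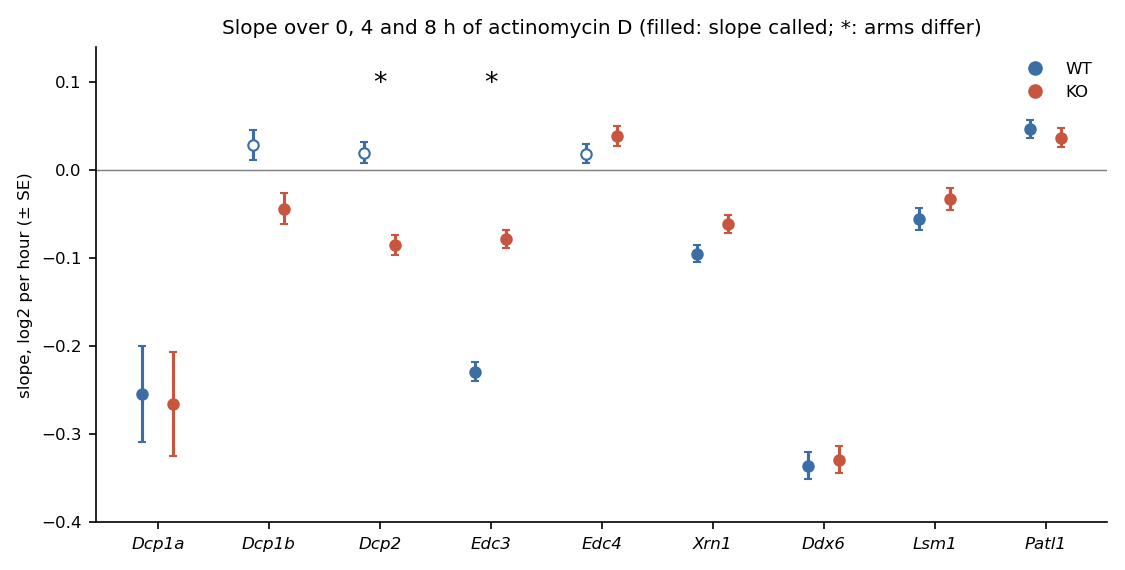
Slope of each member over 0, 4 and 8 h of actinomycin D in WT and KO cells (y axis, log2 per hour ± SE, relative to the average mRNA). Filled symbols passed an adjusted p of 0.05 and an asterisk marks a difference between arms that passed: -0.10 for Dcp2 and 0.15 for Edc3.

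Across the 20 libraries, with log2 CPM centred within each experiment, the members did not follow a single pattern. Pearson's r between pairs of members ran from -0.912 (Dcp2 with Edc4) to 0.854 (Edc3 with Xrn1), with a median of 0.259 over 36 pairs, of which 20 were positive. Ddx6 went with Lsm1 (0.85) and with Dcp1a (0.837). These are descriptions, since libraries of a group share their condition. The genes most like each member over those libraries, among about 8880 compared, were Sall4, Spred2 and Cebpg for Dcp1a (r up to 0.993), Spop, Pip4k2b and Nkapd1 for Dcp2 (0.987), Utp3, Supt7l and Nmd3 for Edc3 (0.989), and Cacul1, Trim25 and Wwc1 for Ddx6 (0.989). They were Tcn2, Serping1 and Prcp for Edc4 (0.972), Vps13b, Cul3 and Wdr7 for Xrn1 (0.979), Aqr, Efl1 and Cltc for Patl1 (0.945), Trappc6b, Fam111a and Cwf19l1 for Lsm1 (0.93), and Deaf1, Mid1 and Sema4g for Dcp1b (0.92).

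The partners of Lsm1 in the decay ring, Lsm2 to Lsm7, were lower in KO cells in day 3 total RNA for 4 of 6, with 0 higher and a median of -0.77; of all genes 12.2% were lower and 16% higher, with a median of 0.01. Lsm5 changed by -0.86 ± 0.18, Lsm6 by -0.79 ± 0.14 and Lsm4 by -0.71 ± 0.14 (edgeR adjusted p = 0.00604, 0.00249 and 0.0052). Without total WT replicate 1 or total KO replicate 2, Lsm4 and Lsm5 did not pass (edgeR adjusted p from 0.0598 to 0.076). In polysome RNA 3 of 6 were lower (21.1% of all genes, medians -0.66 and -0.08), with Lsm5 at -0.91 ± 0.19 (edgeR adjusted p = 0.00461). With library totals as the scale 1 of 6 was lower, against 2000 of 18303 genes. The calls of Lsm4, Lsm5 and Lsm6 were lost without polysome KO replicate 2, and that of Lsm6 also without either total KO replicate. At 0 h 4 of 6 were lower (32.9% of all genes; medians -0.52 and -0.01), with Lsm5 at -0.74 ± 0.09, Lsm6 at -0.56 ± 0.06 and Lsm4 at -0.48 ± 0.05 (edgeR adjusted p from 8.73e-12 to 9.73e-09). Lsm2 to Lsm7 also form a nuclear ring with Lsm8 that serves splicing. In the actinomycin D series Lsm3 and Lsm7 were near the floor, at an average log2 CPM of -1.49 and 0.63, against 7.37 for Lsm4. Lsm3 was low on day 3 too (-0.51). The negative WT slope counted next is that of Lsm3. After actinomycin D 5 of 6 had a positive slope and 1 a negative slope in WT (35% and 38.8% of all genes), and Lsm4 alone differed between arms, against 8.78% lower and 10.2% higher of all genes (-0.06 ± 0.01, edgeR adjusted p = 0.0128); that call was lost in 7 alternatives, among them RLE scaling and, with adjusted p of 0.052 to 0.0667, without WT replicate 2 at 0 h, WT replicate 1 at 8 h or either KO replicate at 8 h.

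Of 9 co-factors of decapping and scaffolds of P bodies, the granules where decapping factors gather, 2 were lower and 0 higher in day 3 total RNA (12.2% and 16% of all genes; medians -0.34 and 0.01). Lsm14b, a Ddx6 partner, changed by -0.86 ± 0.15 and Pnrc2, which connects Dcp1a to nonsense-mediated decay, by -0.53 ± 0.16 (edgeR adjusted p = 0.00228 and 0.0321). Leaving out any single total library ended the Pnrc2 call (edgeR adjusted p from 0.0952 to 0.137). In polysome RNA 3 of 9 were lower, against 21.1% of all genes (medians -0.32 and -0.08): Gigyf1 at -1.18 ± 0.20, Patl2 at -0.98 ± 0.15 and Lsm14b at -0.92 ± 0.15 (edgeR adjusted p = 0.00136, 0.00087 and 0.00104). At 0 h all 9 passed, 5 lower and 4 higher, against 32.9% and 29.8% of all genes (medians -0.29 and -0.01). Under RLE scaling 2 were higher (3537 of 15823 genes) and by DESeq2 0 (2535 of 25721 genes). Lsm14b stood at -0.55 ± 0.05, Gigyf1 at -0.43 ± 0.05 and the cap-binding repressor Eif4e2 at -0.41 ± 0.04 (edgeR adjusted p from 1.42e-13 to 1.79e-09). Between arms 3 slopes of 9 were higher in KO and 0 lower (10.2% and 8.78% of all genes), those of Pnrc2 (0.25 ± 0.06), Gigyf2 (0.08 ± 0.01) and Eif4e2 (0.04 ± 0.01), with edgeR adjusted p = 0.018, 0.00107 and 0.03. Pnrc2 missed without either WT replicate at 0 h or either KO replicate at 8 h (0.0555 to 0.0616), and Eif4e2 without replicate 1 of either arm at 0 h or when any single 8 h library was left out (0.0582 to 0.121). Lsm14b also differed between day 3 and day 2 (-0.28 ± 0.08, edgeR adjusted p = 0.0315), the only gene of these 4 pathway lists that did.

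Of 6 other cap hydrolases and 5′ exonucleases, Nudt12 alone passed in total RNA, where 28.2% of all genes did (0.62 ± 0.21, edgeR adjusted p = 0.0475), and not under RLE scaling, without the filter, by DESeq2 or with any single total or polysome KO library left out (0.066 to 0.445). Nudt3 alone passed in polysome RNA, where 37% of all genes did (-0.42 ± 0.13, edgeR adjusted p = 0.0245), and not with library totals as the scale, without the filter, with the 4 polysome libraries alone or with any single total or polysome KO library left out (0.105 to 0.152). At 0 h 1 of 6 was higher and 2 lower (29.8% and 32.9% of all genes). With library totals as the scale this became 3 and 0, and of 15823 genes 6619 were higher and 3396 lower. The slopes of Nudt3 (-0.09 ± 0.01, edgeR adjusted p = 0.000204) and of Dxo, which removes incomplete caps (-0.07 ± 0.02, edgeR adjusted p = 0.00791), were lower in KO, 2 of 6 against 8.78% of all genes. The 3′-to-5′ route, the RNA exosome and the SKI complex, had 1 of 14 higher and 0 lower in total RNA (16% and 12.2% of all genes; medians -0.06 and 0.01). That gene was Dis3l, a cytoplasmic exosome nuclease, at 0.97 ± 0.17 in total RNA, 1.26 ± 0.18 in polysome RNA and 0.93 ± 0.06 at 0 h (edgeR adjusted p = 0.00288, 0.000527 and 2.53e-16). In total RNA it missed without total WT replicate 1 (edgeR adjusted p = 0.0719) or total KO replicate 2 (0.0524). In polysome RNA 1 of 14 was higher and 1 lower (15.9% and 21.1% of all genes); the latter was Ttc37, a SKI complex subunit, at -0.53 ± 0.15 (edgeR adjusted p = 0.0213), a call lost in 9 of 15 alternatives, among them leaving out any single total or polysome KO library (0.0902 to 0.116). At 0 h 4 of 14 were higher and 6 lower (29.8% and 32.9% of all genes). With library totals as the scale this became 7 and 0, and of 15823 genes 6619 were higher and 3396 lower. The slope was higher in KO for 5 of 14 and lower for 1 (10.2% and 8.78% of all genes); Exosc4 (0.18 ± 0.02) and Exosc1 (0.17 ± 0.03), core exosome subunits, were the former with the smallest adjusted p (4.4e-05 and 0.0015 by edgeR), and the SKI helicase Skiv2l (-0.07 ± 0.02, edgeR adjusted p = 0.0091) was the latter, a call that missed under RLE scaling (0.0502) and without KO replicate 1 at 8 h (0.052).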

How the data were processed

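The files hold read counts per Ensembl gene, deposited by the authors as unnormalised whole numbers; STAR 2.3.0e, HTSeq and mm9 are named, per the submitters' processing notes, and the HTSeq version and settings are not given in the sources used here. Gene names, lengths and 3′ UTRs came from GENCODE M21 (GRCm38) by gene identifier, with the coding transcript of greatest coding length for each gene. The rows for reads in no gene or ambiguous between genes were left out. They held 7.43 to 27.7% of these reads and the gene counts together. Reads aligned to several places were also left out. Against the same total they came to 25.2 to 33.3% in day 3 total libraries and 0% in polysome and actinomycin D libraries.

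Counts were tested with edgeR 4.0.16 (R 4.3.3) by quasi-likelihood, scaled by TMM and filtered with filterByExpr (10 counts at least), with Benjamini-Hochberg adjustment over all genes tested; calls used 0.05. Day 3 libraries, actinomycin D libraries, and day 3 total with 0 h libraries were each fitted together. Slopes used hours as a number. The scripts were tested on simulated data. Members and pathway and marker lists were chosen with earlier results of these data known. Up to 3 genes of smallest adjusted p among those called were named per list and comparison; Clk3 was named after its values were seen. DESeq2 1.42.0, other scalings and filters, a replicate term, time as a factor and each library left out were the alternatives.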

Additional observations from a re-analysis of the deposited data

Results flagged for a closer look

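The loss after actinomycin D differed between KO and WT cells for 2 of the 9 mRNAs, by the test of the difference itself (edgeR quasi-likelihood test, adjusted over all genes), against 19% of all genes tested. Slopes are relative to the average mRNA of a library. For Dcp2 the slope in KO minus that in WT was -0.105 log2 per hour. The KO libraries were lower already at 0 h, at 51.7% of the WT mean, and stood at 29.0% at 8 h. The Dcp2 call was lost in 1 of 23 alternatives, the scaling to mitochondrially encoded mRNAs. For Edc3 the difference was 0.150 log2 per hour. The KO libraries stood at 106% of the WT mean at 0 h and at 243% at 8 h. Clk3, which overlaps Edc3 on the opposite strand, differed by 0.14.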

How the results depend on the processing

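Of 1314 member values under an alternative, 1117 kept their direction and side of the threshold, 53 lost a call, 48 gained one, 83 changed sign with no call on either side, and 13 changed direction with a call. The last were, at 0 h, Xrn1 with library totals (0.14); for WT slopes scaled to ribosomal protein mRNAs, Dcp1b (-0.11), Dcp2 (-0.12), Edc4 (-0.12) and Patl1 (-0.10), and for KO slopes Edc4 (-0.066) and Patl1 (-0.068); for KO slopes scaled to mitochondrial mRNAs, Dcp1b (0.033), Xrn1 (0.013) and Lsm1 (0.044); and by interval, which was chosen after seeing the data, WT slopes from 4 to 8 h of Dcp1a (0.054) and Dcp2 (-0.033) and the slope difference from 0 to 4 h of Dcp1a (0.19). Scaling to a gene set shifts all genes by construction; the cause of the others was not tested.

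Members called changed as follows, with the genes called among all those tested in parentheses. With library totals, total RNA had 1 higher and 1 lower (5179 and 908 of 18303). Polysome RNA had 0 lower (2000 of 18303) and 0 h 3 higher (6619 of 15823). WT and KO slopes had 0 higher (3742 and 3461 of 15823) and the slope difference 2 higher (2349 of 15823). With a 1 CPM filter, total RNA had 1 higher (2880 of 15854) and 0 h 2 higher (4571 of 14149). The slope difference then had 2 lower (1762 of 14149). With no filter, polysome RNA had 1 lower (2815 of 34955). With the 4 libraries alone, total RNA had 1 higher and 4 lower (5469 and 5467 of 18924). Polysome RNA then had 0 lower (1427 of 15157) and 0 h 2 higher (4902 of 15255). Scaled to ribosomal protein mRNAs, WT slopes had 0 higher and 9 lower (247 and 12693 of 15823). KO slopes had 0 higher (46 of 15823) and the difference 5 higher (3679 of 15823). Scaled to mitochondrial mRNAs, KO slopes had 2 lower (3041 of 15823) and the difference 0 lower (9 of 15823). With time as a factor, WT slopes had 4 higher (5986 of 15823) and the difference 3 higher and 2 lower (2876 and 3838 of 15823). From 0 to 4 h WT slopes had 3 higher (5531 of 15823) and the difference 2 higher (2129 of 15823). From 4 to 8 h KO slopes had 0 higher (3217 of 15823) and the difference 2 lower (1791 of 15823).

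Genes called, against 5156 in total RNA, 6763 in polysome RNA, 2 for association, 11685 and 10751 for WT and KO slopes, 3003 for the slope difference and 921 between days, came to 10936 (total) and 3287 (polysome) with the 4 libraries alone, to 40 (association) and 1582 (days) with no filter, to 56 and 416 by DESeq2, to 1855 (slope difference) scaled to mitochondrial mRNAs, to 6714 with time as a factor, and to 7588 (WT) and 6779 (KO) from 4 to 8 h. The split of higher against lower calls moved from 2931 and 2225 to 5179 and 908 in total RNA, from 2904 and 3859 to 4547 and 2000 in polysome RNA, from 4718 and 5203 to 6619 and 3396 at 0 h (3537 and 6898 with RLE) and from 485 and 436 to 1049 and 270 between days (341 and 651 with RLE) when library totals replaced TMM, and from 5543 and 6142 to 3742 and 7680 for WT slopes and from 5006 and 5745 to 3461 and 6758 for KO slopes. Scaled to ribosomal protein mRNAs it was 247 and 12693 for WT slopes and 46 and 12567 for KO slopes; KO slopes scaled to mitochondrial mRNAs had 7434 and 3041. For the slope difference it went from 1614 and 1389 to 2349 and 648 (library totals), 1693 and 556 (RLE), 3679 and 255 (ribosomal protein) and 1846 and 9 (mitochondrial). The median of all genes moved from 0.01 to 0.28 in total RNA, from -0.08 to 0.15 in polysome RNA and from -0.01 to 0.14 at 0 h with library totals, and to -0.15 at 0 h with RLE.

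Leaving out each library in turn, genes called ranged from 1289 to 9522 (total), 3480 to 9406 (polysome), 0 to 4959 (association), 8491 to 10229 (0 h), 10466 to 11913 (WT slope), 9317 to 11040 (KO slope), 1748 to 3680 (slope difference) and 434 to 1664 (days). Members higher and lower ranged from 0 to 1 and 1 to 4 (total), 0 to 2 and 0 to 5 (polysome), 0 to 2 and 0 to 2 (association), 1 to 1 and 3 to 4 (0 h), 1 to 1 and 5 to 5 (WT slope), 1 to 2 and 5 to 7 (KO slope), 1 to 1 and 1 to 2 (slope difference), and 0 to 0 and 0 to 1 (days). The lowest total counts came without total WT replicate 1 and the highest without polysome WT replicate 2; a group left with 1 library is assumed to vary like the others.

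Replicate numbers were not shown to pair the libraries: the correlation of same-numbered deviations ran from -0.06 to 0.07 in the actinomycin D series and from -0.04 to 0.22 on day 3. With the replicate block, total RNA had 1 member higher in place of 0, Edc4 (edgeR adjusted p = 0.0433). The 2 replicates per group, libraries scaled to each other and 89 to 249 reads for Dcp1b limit all values.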
